A study of Mus musculus with 6 samples.

Results

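The genes described here are 10 markers of Kupffer cells and other resident macrophages: Vsig4, Timd4, Cd5l, Marco, Cd163, Folr2, Mrc1, Lyz2, Adgre1 and Csf1r. They were taken by gene symbol from the deposited count table, which holds 52323 genes, and all 10 were present and passed the filter on low counts. Bulk RNA-seq was performed on damaged hepatocytes (dHeps), which were isolated from the livers of C57BL/6 mice after carbon tetrachloride (CCl4) injury and cultured for 16 days in serum-free Hepatocyte Maintenance Medium. The libraries fell into 3 groups of 2 libraries each: solvent alone (DMSO), the 3C cocktail (50 µM CID755673, a protein kinase D inhibitor, 2 µM GSK429286A, a ROCK inhibitor, and 5 µM ETC-1002, an ATP citrate lyase inhibitor) and the 5C cocktail, which added 5 µM salidroside, a plant glucoside, and the adenylate cyclase activator forskolin at 2 µM. All groups, the DMSO control included, shared the CCl4 injury and a lineage tracing genotype (AAV-TBG-Cre:Rosa-LSL-tdTomato), in which the TBG promoter drives Cre in hepatocytes. The cells were obtained by collagenase and pronase perfusion, and each library holds the RNA of every cell in the culture. The labels did not state whether the libraries of a group came from separate animals or cultures, so p-values measure the spread between these samples, which may be technical.

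Kupffer cells are the macrophages that live in the sinusoids of the liver, where they take up particles, complement-coated microbes and dying cells from the blood. VSIG4, TIM-4, CD5L and MARCO are typical of this population, CD163, FOLR2 and the mannose receptor MRC1 are shared with resident macrophages of other organs, and lysozyme M, the adhesion receptor F4/80 (encoded by Adgre1) and CSF1R are found across macrophages. CSF1R is the receptor for the growth factors CSF1 and IL-34, on which most macrophages depend.

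Vsig4, Cd5l and Marco were lower than in DMSO in both cocktails. Between 5C and 3C Marco was lower in 5C, while the order of Vsig4 and of Cd5l was not resolved. Promoter sequences of these 3 markers are shown. Each is the 250 bases before the RefSeq start site (RefSeq sequence of GRCm38.p6, placed by exact match on GRCm39), with matches to GAGGAA, the core bound by the macrophage transcription factor PU.1, or to its reverse complement in capitals. The Vsig4 promoter (chrX:95337045-95337294, minus strand) held 2 matches, the Cd5l promoter (chr3:87264938-87265187, plus strand) held 1 and the Marco promoter (chr1:120432754-120433003, minus strand) held 1.
Vsig4: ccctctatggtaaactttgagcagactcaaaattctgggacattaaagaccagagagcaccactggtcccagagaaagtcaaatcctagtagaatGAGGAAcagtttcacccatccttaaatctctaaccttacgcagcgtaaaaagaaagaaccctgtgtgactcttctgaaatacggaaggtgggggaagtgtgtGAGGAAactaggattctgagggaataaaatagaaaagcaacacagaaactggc
Cd5l: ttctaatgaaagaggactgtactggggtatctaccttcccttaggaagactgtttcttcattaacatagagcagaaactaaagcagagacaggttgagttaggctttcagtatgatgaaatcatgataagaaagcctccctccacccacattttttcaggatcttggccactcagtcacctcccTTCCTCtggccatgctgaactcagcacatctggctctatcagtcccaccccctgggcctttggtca
Marco: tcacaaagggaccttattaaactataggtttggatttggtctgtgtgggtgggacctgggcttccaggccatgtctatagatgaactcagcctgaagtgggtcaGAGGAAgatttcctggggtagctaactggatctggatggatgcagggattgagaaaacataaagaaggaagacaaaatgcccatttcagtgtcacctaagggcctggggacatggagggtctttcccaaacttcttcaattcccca
RefSeq promoters were found for 8 of the 10 markers, and 4 of these held the PU.1 core, beside 23.3% of 32851 promoters of the same length. The 4 were the 3 shown and Mrc1, which held 3 matches. A match describes the letters in this window and is not a measured binding site.

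In all 6 libraries together, the totals of estimated counts lay between 65916573 and 69245895, so depth was nearly equal. The 10 markers took 0.920% and 0.948% of the counts in DMSO, 0.294% and 0.297% in 3C and 0.193% and 0.200% in 5C. A separate list of 18 pan-macrophage genes, none of them among the 10, took 0.940% and 1.06% in DMSO, 0.364% and 0.367% in 3C and 0.258% and 0.247% in 5C. Over the same libraries the summed level of 10 hepatocyte genes was 2572 to 2894 counts scaled to the library total (CPM) in DMSO, 11325 to 11841 CPM in 3C and 10778 to 15628 CPM in 5C. The summed levels of 7 stellate cell and fibroblast genes were 3795 to 4475, 3589 to 3616 and 5614 to 5857 CPM in DMSO, 3C and 5C, and those of 4 cholangiocyte genes 151 to 153, 332 to 397 and 327 to 349 CPM. Col1a1 weighed most in the stellate cell and fibroblast sum, with means of 3201, 2088 and 3774 CPM. In 3C against DMSO the median log2 fold change of these 7 genes was 0.72, and 2 of the 7 were negative. Genes of dendritic cells summed to 12.3 to 15.9 CPM over all libraries, and all 8 genes of T and B cells were at or under the floor of 3 fragments in every group. Most of the dendritic cell sum was Zbtb46, with means of 14.2, 12.9 and 13.1 CPM in DMSO, 3C and 5C. Of the 6 dendritic cell genes, 4, 5 and 5 were at or under the floor in these groups. The part of these other cells in the marker levels was not tested. In bulk libraries, fewer macrophages and less marker RNA per macrophage cannot be told apart.

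Per length, the markers spanned a wide range in DMSO. Lyz2 stood highest at 4198 ± 89.4 FPKM (fragments scaled for gene length and library total; SD, n = 2 for this and all other groups). It was followed by Mrc1 at 216 ± 1.16 FPKM and Cd5l at 182 ± 37.3 FPKM. These values lay within the spread of Cd5l, so their order is not resolved. Next came Vsig4 at 137 ± 4.60 and Folr2 at 135 ± 0.907 FPKM, and then Adgre1 at 119 ± 0.785 and Marco at 118 ± 11 FPKM. Neither pair of neighbours differed beyond its spread. Csf1r was at 82.9 ± 5.95 FPKM and Cd163 at 22.5 ± 2.72 FPKM. Timd4 was at 0.821 ± 0.170 FPKM, far under the others. Alb, the hepatocyte product albumin, was at 568 ± 74.8 FPKM in the same libraries, so the Lyz2 transcript was the more abundant of the 2 per length in DMSO. In 3C and 5C this order was the other way round, with Alb at 3337 ± 161 and 3794 ± 1060 FPKM and Lyz2 at 1227 ± 1.99 and 758 ± 9.11 FPKM. In 5C the order of the markers also changed: Marco, at 15.1 ± 1.35 FPKM, came under Csf1r at 20.4 ± 0.544 FPKM.

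All 10 markers fell in 5C and all 10 fell in 3C, each compared with the same 2 DMSO libraries. The calls required an adjusted p under 0.05 by edgeR's quasi-likelihood test with Benjamini-Hochberg adjustment over 19135 genes, and a log2 fold change beyond 1 in either direction. Of all genes tested, 4.42% were called lower in 5C and 3.62% in 3C. The folds ran from 3.01-fold (Mrc1) to 7.71-fold (Marco) lower in 5C and from 2.27-fold (Mrc1) to 6.43-fold (Timd4) lower in 3C. The median log2 fold change of the 10 was -2.07 in 5C and -1.83 in 3C, beside 0.0041 and 0.0088 over all tested genes. For none of the 10 did the DMSO libraries overlap with those of either cocktail, which held for 30.7% of all tested genes in the lower direction in each comparison.

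**Figure D1:**
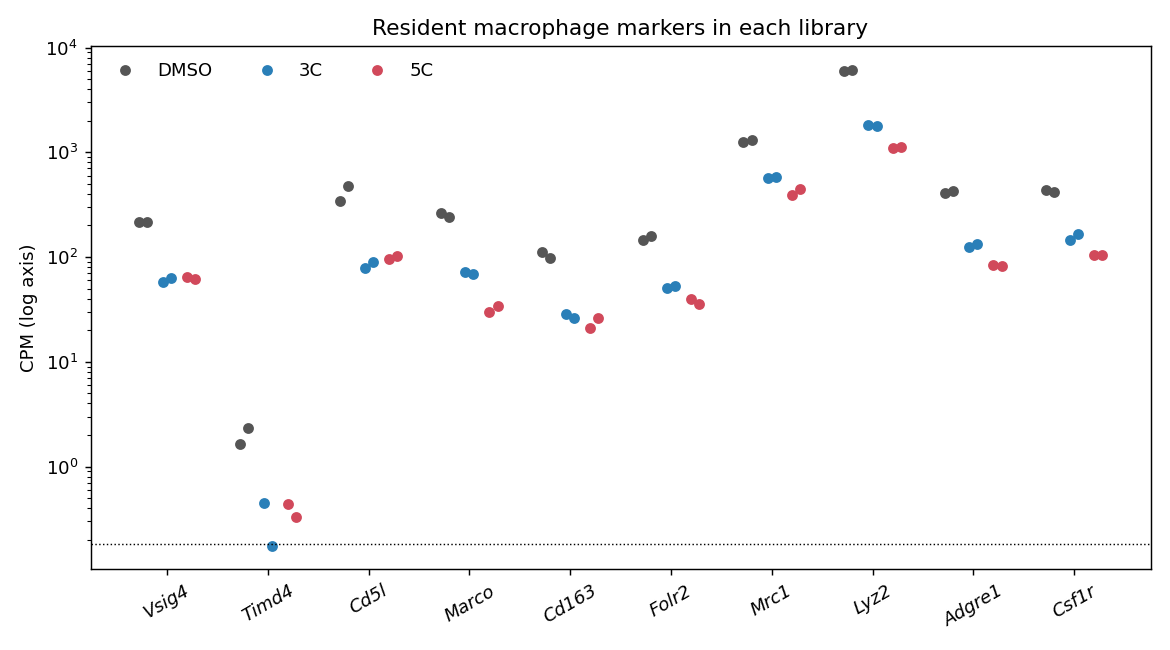
Level of each marker in each library, in CPM on a log axis; each point is 1 of the 2 libraries of DMSO (grey), 3C (blue) or 5C (red), and the dotted line is the floor of 3 fragments at its highest value, 0.182 CPM. The DMSO points lie above both cocktails for all 10 markers, Marco is lower in 5C than in 3C, and 1 Timd4 point of 3C lies at the floor.

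The scavenger receptor family with cysteine-rich domains holds 3 of the markers. Marco (chromosome 1, 120402267 to 120432753, GRCm39, as for all positions here) encodes a receptor that binds bacteria and unopsonized particles. It was at 260 and 240 CPM in DMSO, 71.4 and 68.7 CPM in 3C and 29.6 and 34.3 CPM in 5C. The 3 groups stood apart, with 5C lowest. Marco fell by 2.95 on the log2 scale in 5C (SE 0.09, adjusted p = 2.15e-07), the largest fall among the 10 in that comparison, and by 1.87 in 3C (SE 0.09, adjusted p = 2.37e-06). Cd163 (chromosome 6, 124281606 to 124307560) encodes the receptor for haemoglobin bound to haptoglobin. Its level was 111 and 97.8 CPM in DMSO, 28.8 and 26.3 CPM in 3C and 21.1 and 26.4 CPM in 5C. Both cocktails lay under DMSO, and 3C and 5C overlapped. The log2 fold change of Cd163 was -2.12 in 5C (SE 0.12, adjusted p = 3.49e-06) and -1.95 in 3C (SE 0.12, adjusted p = 8.18e-06). Cd5l (chromosome 3, 87265182 to 87278380) encodes a secreted protein of the same family that resident macrophages release into blood. Its 2 DMSO libraries were further apart than those of most other markers, at 340 and 478 CPM, with 77.8 and 88.7 CPM in 3C and 96.5 and 102 CPM in 5C. For Cd5l it was 3C that stood lowest. The log2 fold change was -2.02 in 5C (SE 0.17, adjusted p = 0.000172) and -2.33 in 3C (SE 0.17, adjusted p = 0.000117).

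Receptors for complement and for dying cells were next. Vsig4 (chromosome X, 95290807 to 95337044) encodes the complement receptor of Kupffer cells that captures opsonized bacteria. It was at 216 and 216 CPM in DMSO, 57.2 and 62.8 CPM in 3C and 64.5 and 61.9 CPM in 5C, so that 3C and 5C overlapped well under DMSO. The fold was 3.37-fold lower in 5C (log2 fold change -1.75, SE 0.07, adjusted p = 5.33e-07) and 3.68-fold lower in 3C (-1.88, SE 0.07, adjusted p = 1.48e-06). Timd4 (chromosome 11, 46701620 to 46735177) encodes TIM-4, the phosphatidylserine receptor of long-lived resident macrophages. Only 110 and 153 estimated counts were assigned to it in DMSO, 30 and 12 in 3C and 30 and 23 in 5C, or 1.64 and 2.32, 0.453 and 0.176, and 0.434 and 0.332 CPM. Of the 3C libraries, the lower one was at the floor of 12 estimated counts. Timd4 fell in both comparisons, by 2.35 on the log2 scale in 5C (SE 0.54, adjusted p = 0.0106) and by 2.68 in 3C (SE 0.55, adjusted p = 0.00671), with the widest intervals of the 10. The 5C call rested on single libraries: without DMSO replicate 2 the log2 fold change was -2.06 with an adjusted p of 0.0606, and without 5C replicate 2 it was -2.18 with an adjusted p of 0.0702. On the log2(FPKM + 1) scale, where limma was used, the changes of this low gene were -0.65 and -0.69 and did not reach the fold limit.

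Mrc1 and Folr2 take up ligands by endocytosis. Mrc1 (chromosome 2, 14234151 to 14336926) encodes the mannose receptor and was at 1249 and 1303 CPM in DMSO, 563 and 585 CPM in 3C and 394 and 442 CPM in 5C. Again 5C lay lowest and no groups overlapped. The log2 fold change of Mrc1 was the smallest of the 10 in both comparisons, -1.59 in 5C (SE 0.08, adjusted p = 2.03e-06) and -1.18 in 3C (SE 0.08, adjusted p = 1.52e-05). Sinusoidal endothelial cells also express Mrc1. Summed over 8 endothelial genes the level was 44.4 to 57.3 CPM in DMSO, 30.1 to 53.3 CPM in 3C and 104 to 170 CPM in 5C. Within that list Stab2 was at 7.89 and 7.87 CPM in DMSO, 3.20 and 5.83 CPM in 3C and 5.05 and 10.9 CPM in 5C. The sinusoidal gene Clec4g was at 0 in DMSO and 5C and at or under the floor in 3C. Of the list, 5 genes were called higher and 1 lower in 5C, and 3 higher and 1 lower in 3C. The lower gene was Vwf in both, which encodes von Willebrand factor, at 25 and 38.4 CPM in DMSO, 6.98 and 9.78 CPM in 3C and 4.78 and 6.86 CPM in 5C. Their part in the Mrc1 level was not tested. Folr2 (chromosome 7, 101489195 to 101506401) encodes folate receptor beta. It was at 146 and 160 CPM in DMSO, 50.7 and 52.9 CPM in 3C and 39.3 and 35.6 CPM in 5C, with no overlap between groups. The log2 fold change of Folr2 was -2.01 in 5C (SE 0.08, adjusted p = 5.83e-07) and -1.59 in 3C (SE 0.08, adjusted p = 3.48e-06). A long non-coding gene, Gm10602, overlaps Folr2 on the opposite strand, and since no strand setting was stated their reads cannot be told apart.

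The pan-macrophage markers moved with the others. Adgre1 (chromosome 17, 57665573 to 57790527), which encodes F4/80, was at 411 and 431 CPM in DMSO, 125 and 132 CPM in 3C and 83.4 and 82.8 CPM in 5C. The groups formed 3 separate steps. Adgre1 fell 5.00-fold in 5C (log2 fold change -2.32, SE 0.07, adjusted p = 2.1e-07) and 3.34-fold in 3C (-1.74, SE 0.07, adjusted p = 1.48e-06). Csf1r (chromosome 18, 61229714 to 61266535) was at 439 and 417 CPM in DMSO, 145 and 165 CPM in 3C and 105 and 104 CPM in 5C, and formed the same 3 steps. Its fall was 4.05-fold in 5C (-2.02, SE 0.08, adjusted p = 5.31e-07) and 2.82-fold in 3C (-1.50, SE 0.08, adjusted p = 4.27e-06). Hmgxb3 overlaps Csf1r on the opposite strand, with the same limit on strand. 

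Lyz2 (chromosome 10, 117111557 to 117118346) encodes lysozyme M, the bactericidal enzyme of macrophages and neutrophils. It was at 6024 and 6137 CPM in DMSO, 1821 and 1789 CPM in 3C and 1099 and 1113 CPM in 5C. With replicates this close the 3 groups were far apart, and the log2 fold change was -2.44 in 5C (SE 0.07, adjusted p = 2.1e-07) and -1.78 in 3C (SE 0.07, adjusted p = 1.48e-06). Genes of neutrophils were low: the summed level of 7 of them was 6.78 to 9.01 CPM in DMSO, 1.49 to 2.54 CPM in 3C and 1.49 to 2.30 CPM in 5C, 5 of the 7 were at or under the floor in each group, and S100a9 was at 0 in DMSO.

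Lyz2 has a near-identical neighbour on chromosome 10, Lyz1, the lysozyme of Paneth cells, and reads may be split between them. The coding sequences are 444 bases each and differ at 22 bases, an identity of 95%, with a longest identical stretch of 118 bases. The first 150 coding bases hold 14 of the differences, shown in capitals.
Lyz2: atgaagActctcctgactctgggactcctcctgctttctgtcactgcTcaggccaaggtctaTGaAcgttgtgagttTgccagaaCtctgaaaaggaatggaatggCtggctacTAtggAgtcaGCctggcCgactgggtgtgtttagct
Lyz1: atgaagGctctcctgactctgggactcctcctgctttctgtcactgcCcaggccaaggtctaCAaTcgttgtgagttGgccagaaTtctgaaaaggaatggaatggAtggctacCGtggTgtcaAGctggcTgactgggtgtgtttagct
Over the canonical transcripts, 7.30% of the 50-base words of Lyz2 also occurred in transcripts of another gene, and 17.3% of those of Lyz1. Lyz1 was at 4.18 and 5.02 CPM in DMSO, 0.604 and 0.762 CPM in 3C and 0.536 and 1.23 CPM in 5C, far under Lyz2 in every library. Lyz1 had log2 fold changes of -2.36 in 5C (adjusted p = 0.00276) and -2.78 in 3C (adjusted p = 0.00144), and its values are uncertain because of the shared words. For the other 9 markers at most 0.583% of the words were shared. A long non-coding gene, Gm67237, overlaps Lyz2 on the opposite strand, with the limit on strand given for Folr2.

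The comparison of 5C with 3C bears on what salidroside and forskolin added. Here 1 of the 10 markers was called, Marco, where 0.852% of all tested genes were called lower. Marco was 2.11-fold lower in 5C than in 3C (log2 fold change -1.08, SE 0.09, adjusted p = 0.000261). It lay close to the fold limit, and without 5C replicate 1 the log2 fold change was -0.97 with an adjusted p of 0.00192, so that no marker was then called. Adjusted p-values under 0.05 were reached by 6 markers, all lower in 5C, as by 5.33% of tested genes in that direction. The other 5 had smaller differences, of -0.66 for Lyz2 (adjusted p = 0.000575), -0.58 for Adgre1 (adjusted p = 0.0012), -0.52 for Csf1r (adjusted p = 0.00337), -0.42 for Folr2 (adjusted p = 0.0102) and -0.41 for Mrc1 (adjusted p = 0.0121). Vsig4, Cd5l, Cd163 and Timd4 did not pass the test, and their intervals bound the difference unequally. That of Vsig4 was narrow, 0.13 with a 95% interval from -0.032 to 0.28. Cd163 had a difference of -0.16 (-0.44 to 0.11) and Cd5l of 0.31 (-0.090 to 0.70). For Timd4, at 0.34 (-0.91 to 1.59), a difference was not detectable at this depth. The smaller values depended on single libraries and on the fit. Folr2 had adjusted p-values of 0.0596, 0.101 and 0.0721 without 3C replicate 1, 3C replicate 2 and 5C replicate 2, and Mrc1 of 0.0732, 0.118 and 0.0763 without 3C replicate 1, 3C replicate 2 and 5C replicate 1. Cd5l, in contrast, had an adjusted p of 0.0387 (0.31) when only the 4 libraries of 3C and 5C were fitted, and of 0.0396 and 0.0415 without either DMSO library. The median over the 10 was -0.41, beside -0.011 over all tested genes.

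**Figure D2:**
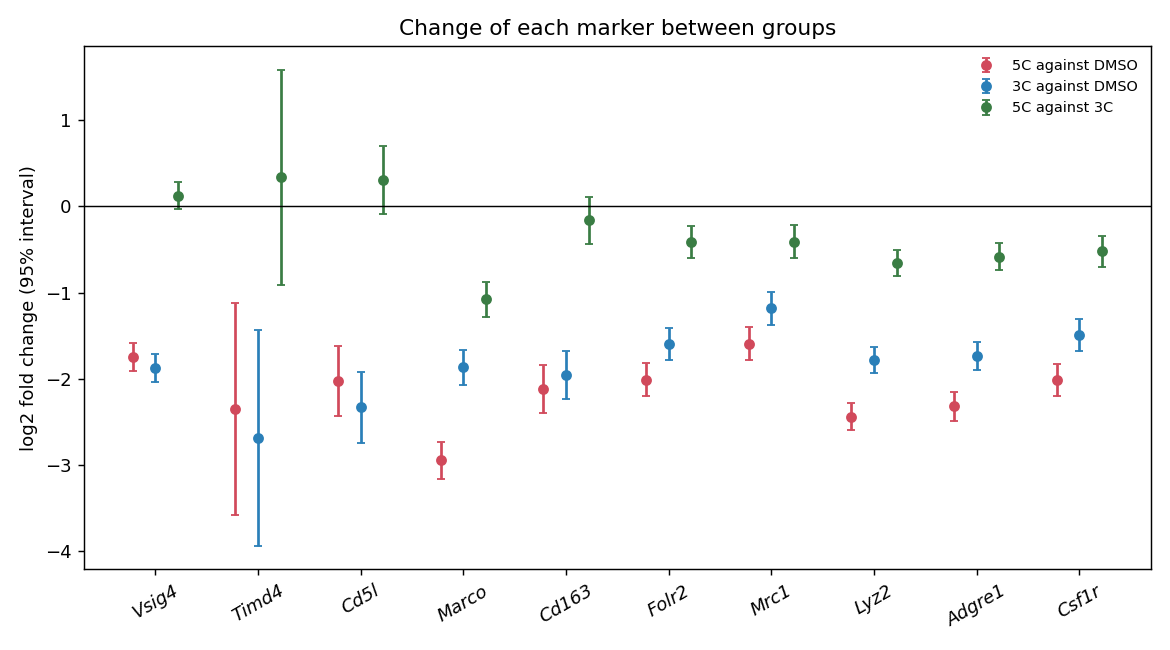
Log2 fold change of each marker between groups, with 95% intervals of the edgeR fit (n = 2 libraries a group): 5C against DMSO in red, 3C against DMSO in blue, 5C against 3C in green. All red and blue intervals lie under 0. The green points divide the markers, with Marco lowest at -1.08 and the intervals of Vsig4, Timd4, Cd5l and Cd163 crossing 0.

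To describe each marker per unit of macrophage RNA, its counts were set against the summed counts of the 18 pan-macrophage genes (such as Cd68, Ptprc, Ctss and the C1q chains). This sum replaced the library size in the same edgeR fit. The most abundant genes weigh most in it: in DMSO C1qa, Mpeg1, Ctss, C1qc and C1qb had means of 1802, 1601, 1571, 1281 and 1229 CPM, beside 86.8 CPM for Ptprc. On this scale the differences were much smaller, and none of the 10 passed both limits in any comparison. By adjusted p alone 4 markers differed in 5C against DMSO, 7 in 3C against DMSO and 3 in 5C against 3C, and the same numbers had an unadjusted p under 0.05. The reference itself fell, and 83% of all tested genes were higher on this scale in 5C and 77.9% in 3C, while 0.481% and 0.502% were lower, and 81.8% and 73.2% passed both limits. Between 5C and 3C, 45.3% were higher, 1.03% were lower and 8.76% passed both limits. The reference is a choice: 15 of its 18 genes were called lower in each cocktail, and Cd14, Aif1 and Coro1a had log2 fold changes of 0.60, 0.47 and 0.61 in 5C and 0.86, 0.62 and 0.93 in 3C. The part of the reference in each relative value was not separated from that of the marker.

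Relative to this sum, Marco was 2.77% and 2.25% of the pan-macrophage counts in DMSO, 1.96% and 1.87% in 3C and 1.15% and 1.39% in 5C. The log2 difference of Marco was -0.99 in 5C against DMSO (adjusted p = 4.88e-05), -0.39 in 3C against DMSO (adjusted p = 0.0203) and -0.60 in 5C against 3C (adjusted p = 0.00605). Marco thus fell beyond the reference in each comparison. The 3C value did not pass without DMSO replicate 1 (-0.23, adjusted p = 0.0971), 3C replicate 1 (-0.42, adjusted p = 0.0607) or 3C replicate 2 (-0.36, adjusted p = 0.107), nor did that between 5C and 3C without 5C replicate 1 (-0.46, adjusted p = 0.0518). Cd5l was at 3.62% and 4.50% in DMSO, 2.14% and 2.42% in 3C and 3.74% and 4.15% in 5C. Its difference was -0.83 in 3C (adjusted p = 0.000131) and -0.043 in 5C (interval -0.32 to 0.24, adjusted p = 0.754), and 5C lay above 3C by 0.79 (adjusted p = 0.00136). Vsig4 took the same order, with 2.30% and 2.03% in DMSO, 1.57% and 1.71% in 3C and 2.50% and 2.51% in 5C. For Vsig4 the difference was -0.40 in 3C (adjusted p = 0.00539), 0.21 in 5C (interval -0.021 to 0.45, adjusted p = 0.0815) and 0.61 between 5C and 3C (adjusted p = 0.00186). Without 3C replicate 1 the 3C value of Vsig4 did not pass (-0.34, adjusted p = 0.0771), and without DMSO replicate 1 its 5C value did (0.30, adjusted p = 0.011). By adjusted p, Vsig4 and Cd5l were thus higher in 5C than in 3C per pan-macrophage RNA, as were 45.3% of all tested genes. Marco was lower, as were 1.03%. In the main fit, without this reference, the differences of Vsig4 and Cd5l were 0.13 and 0.31 and did not pass.

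Against DMSO, Mrc1 was the only marker higher by adjusted p on this scale. It went from 13.3% and 12.3% of the pan-macrophage counts in DMSO to 15.5% and 16.0% in 3C and 15.3% and 17.9% in 5C. Its differences were 0.38 in 5C (adjusted p = 0.00561) and 0.30 in 3C (adjusted p = 0.0197), and with the geometric mean of the 18 genes as the reference they turned to -0.0092 and -0.080. The 5C value did not pass without 5C replicate 2 (0.26, adjusted p = 0.0749), and the 3C value did not pass without DMSO replicate 2, 3C replicate 1 or 3C replicate 2 (adjusted p = 0.0561, 0.072 and 0.114). Lyz2 equalled 64.1% and 57.7% of the reference counts in DMSO, 50.1% and 48.8% in 3C and 42.6% and 45.1% in 5C. It fell relative to the reference by 0.47 in 5C (adjusted p = 0.000416) and by 0.30 in 3C (adjusted p = 0.00814; 0.0757 without 3C replicate 2). Adgre1 went from 4.38% and 4.05% in DMSO to 3.45% and 3.61% in 3C and 3.23% and 3.35% in 5C, with differences of -0.36 (adjusted p = 0.00534) in 5C and -0.26 (adjusted p = 0.0298) in 3C. The 3C value of Adgre1 did not pass without 3C replicate 1 or 2 (adjusted p = 0.214 and 0.112) or 5C replicate 1 or 2 (0.0537 and 0.0536). Neither Lyz2 nor Adgre1 passed the test between 5C and 3C, at -0.17 (interval -0.36 to 0.018) and -0.10 (-0.31 to 0.11), although Lyz2 did without DMSO replicate 1 or 2 (adjusted p = 0.0379 and 0.038). Cd163 passed it only against DMSO in 3C, at -0.48 (adjusted p = 0.0207), beside -0.16 in 5C (interval -0.52 to 0.21), and its 3C value was lost without DMSO replicate 1 (-0.29, adjusted p = 0.126) or 3C replicate 2 (-0.41, adjusted p = 0.114). Folr2 and Csf1r stayed near the reference, with differences of -0.044 (-0.27 to 0.18) and -0.055 (-0.31 to 0.20) in 5C and of -0.11 (-0.33 to 0.11) and -0.017 (-0.27 to 0.24) in 3C. With the geometric mean reference both passed, Folr2 at -0.43 in 5C (adjusted p = 0.0016) and -0.49 in 3C (adjusted p = 0.000784), and Csf1r at -0.44 in 5C (adjusted p = 0.00237) and -0.40 in 3C (adjusted p = 0.00485), as did Cd5l (-0.43, adjusted p = 0.00893) and Cd163 (-0.54, adjusted p = 0.00971) in 5C. Timd4 could not be placed, at -0.37 in 5C (interval -1.69 to 0.94) and -1.19 in 3C (-2.53 to 0.15; adjusted p = 0.0367 without 3C replicate 1, at -2.03).

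**Figure D3:**
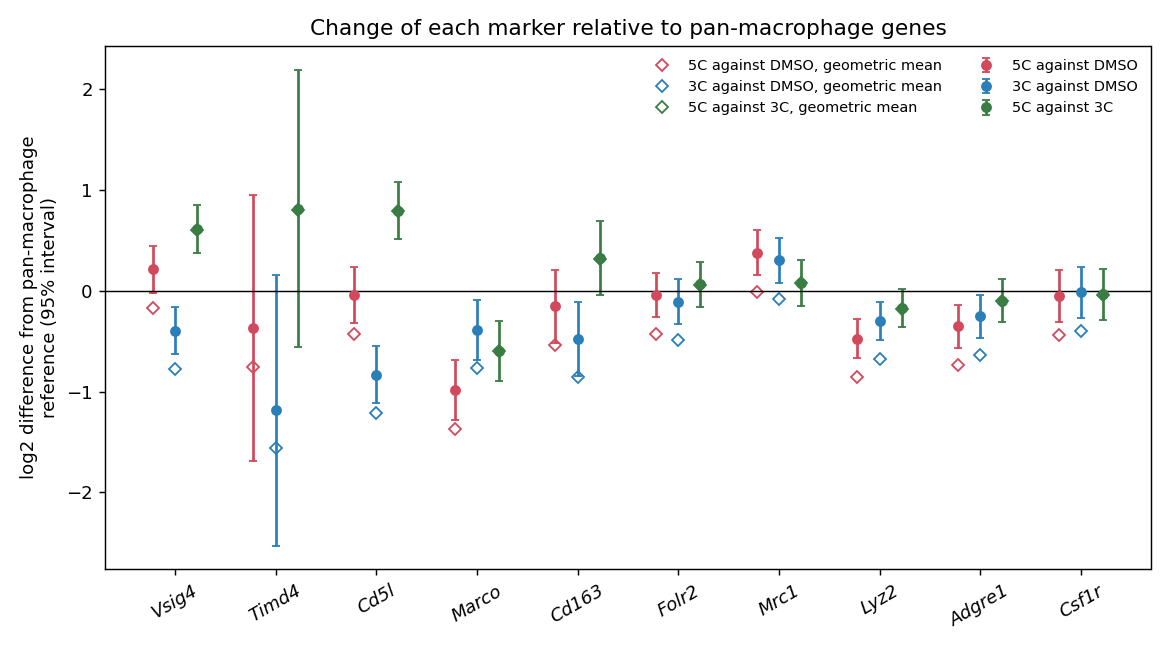
Log2 difference of each marker from the pan-macrophage reference, with 95% intervals (filled points: summed counts of the 18 genes; open diamonds: geometric mean of the same genes), for 5C against DMSO (red), 3C against DMSO (blue) and 5C against 3C (green). The green points of Vsig4 (0.61) and Cd5l (0.79) lie above 0 and that of Marco (-0.60) lies under 0 with either reference, while the geometric mean moves the red and blue points down.

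Other genes listed for Kupffer cells did not move as a block, but some of them could hardly show a change. Spic, Cd207 and Kcna2 held only 3 to 39, 3 to 24 and 10 to 69 estimated counts over the 6 libraries. Which cells the listed genes came from was not tested. Of 12 further Kupffer cell genes, 1 was called lower and 1 higher in 5C, and 3 lower and 1 higher in 3C, with median log2 fold changes of -0.33 and -0.32. The one lower in both was Fcna, which encodes ficolin A, a lectin of the complement pathway, at 701 and 713 CPM in DMSO, 126 and 152 CPM in 3C and 115 and 121 CPM in 5C. Its log2 fold change was -2.56 in 5C (adjusted p = 4.3e-07) and -2.38 in 3C (adjusted p = 1.48e-06), a fall of the same order as that of the markers. Clec1b and C6 were called lower in 3C, at -1.53 (adjusted p = 0.0494) and -1.02 (adjusted p = 0.036), and had values of -1.21 and -0.40 in 5C without passing. Id3, a transcriptional regulator that many cell types express, was higher, by 1.73 in 5C (adjusted p = 2.28e-06) and 1.11 in 3C (adjusted p = 3.77e-05). Clec4f, a C-type lectin restricted in mouse to Kupffer cells, was low throughout, at 2.55 and 2.81 CPM in DMSO, 2.78 and 2.49 CPM in 3C and 2.04 and 1.81 CPM in 5C. It had log2 fold changes of -0.46 in 5C (adjusted p = 0.251) and -0.055 in 3C (adjusted p = 0.917). Per length Clec4f was at 0.980 ± 0.0343 FPKM in DMSO, beside 137 FPKM for Vsig4, so of the markers usually tied to Kupffer cells Clec4f and Timd4 were near the low end in these cultures and Vsig4, Cd5l and Marco were not.

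Resident macrophages outside the sinusoids were represented by 9 genes, of which 8 were tested, 6 were called lower in 5C and 5 in 3C. Pf4, which encodes a chemokine, had log2 fold changes of -3.22 in 5C and -2.19 in 3C, and was the one gene of this list called between 5C and 3C, at -1.04 (adjusted p = 0.0119). Lyve1, a hyaluronan receptor shared with lymphatic and sinusoidal endothelium, was at 309 and 319 CPM in DMSO, 66.1 and 78.1 CPM in 3C and 48.8 and 66.4 CPM in 5C. Clec10a, a galactose lectin, fell by 3.76 in 5C and by 2.95 in 3C on the log2 scale. Gas6, the bridging ligand of the TAM receptors, had a log2 fold change of 0.57 in 5C and 0.21 in 3C. Monocyte genes were measured beside these: of 10, 8 were tested and 4 were called lower and 1 higher in each cocktail. Several were near or under the floor of 12 estimated counts already in DMSO, with 19 and 16 for Ly6c2, 2 and 12 for Ccr2 and 9 and 0 for Treml4. Whether monocytes were present in the cultures was not tested. Chil3, which encodes a chitinase-like protein, was at 2252 and 2236 CPM in DMSO, 240 and 319 CPM in 3C and 79.5 and 85.2 CPM in 5C, with log2 fold changes of -4.75 in 5C and -3.04 in 3C. Its values in 5C and in 3C lay beyond the range of the 10 markers, whose lowest log2 fold changes were -2.95 and -2.68. The gene called higher, Cx3cr1, was at or under the floor in DMSO. Between 5C and 3C, 3 monocyte genes were called lower, among them Chil3 at -1.71 (adjusted p = 0.000258) and Ms4a4c at -1.49 (adjusted p = 0.0282).

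The ligands of CSF1R did not follow their receptor. Csf1 was at 276 and 276 CPM in DMSO, 243 and 231 CPM in 3C and 298 and 324 CPM in 5C, and had log2 fold changes of 0.19 in 5C (adjusted p = 0.0937) and -0.25 in 3C (adjusted p = 0.0364), neither past the fold limit. Il34, the other ligand, was low and was called higher in both, at 1.68 and 1.43 CPM in DMSO, 4.98 and 5.19 CPM in 3C and 5.11 and 2.73 CPM in 5C (log2 fold change 1.35 in 5C, adjusted p = 0.0115, and 1.68 in 3C, adjusted p = 0.00442). Of the 13 genes listed around CSF1R, 12 were tested, and 6 were called lower and 1 higher in each cocktail. Among the genes lower in both were the receptor chains Csf2ra and Csf2rb and the transcription factors Spi1 (PU.1), Irf8 and Zeb2. Their log2 fold changes ran from -1.16 (Zeb2) to -1.86 (Csf2ra) in 5C and from -1.10 (Zeb2) to -1.39 (Csf2rb) in 3C. Maf had values of 0.017 in 5C and -0.32 in 3C.

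Genes of scavenging and of the uptake of dying cells, receptors and others, were mostly not called. Of 12 such genes 3 were lower in both cocktails: Msr1, the class A scavenger receptor related to Marco, at -1.96 in 5C and -1.31 in 3C, Mertk at -1.19 and -1.06, and Stab1 at -1.68 and -1.13. The remaining 9 were not called, among them Axl (0.12 and -0.33) and the haem oxygenase gene Hmox1 (-0.48 and -0.79), which acts downstream of haemoglobin uptake by CD163. Slc40a1, the iron exporter ferroportin, had -0.19 and 0.38. Several of these genes are also expressed by hepatocytes or stromal cells.

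**Figure D4:**
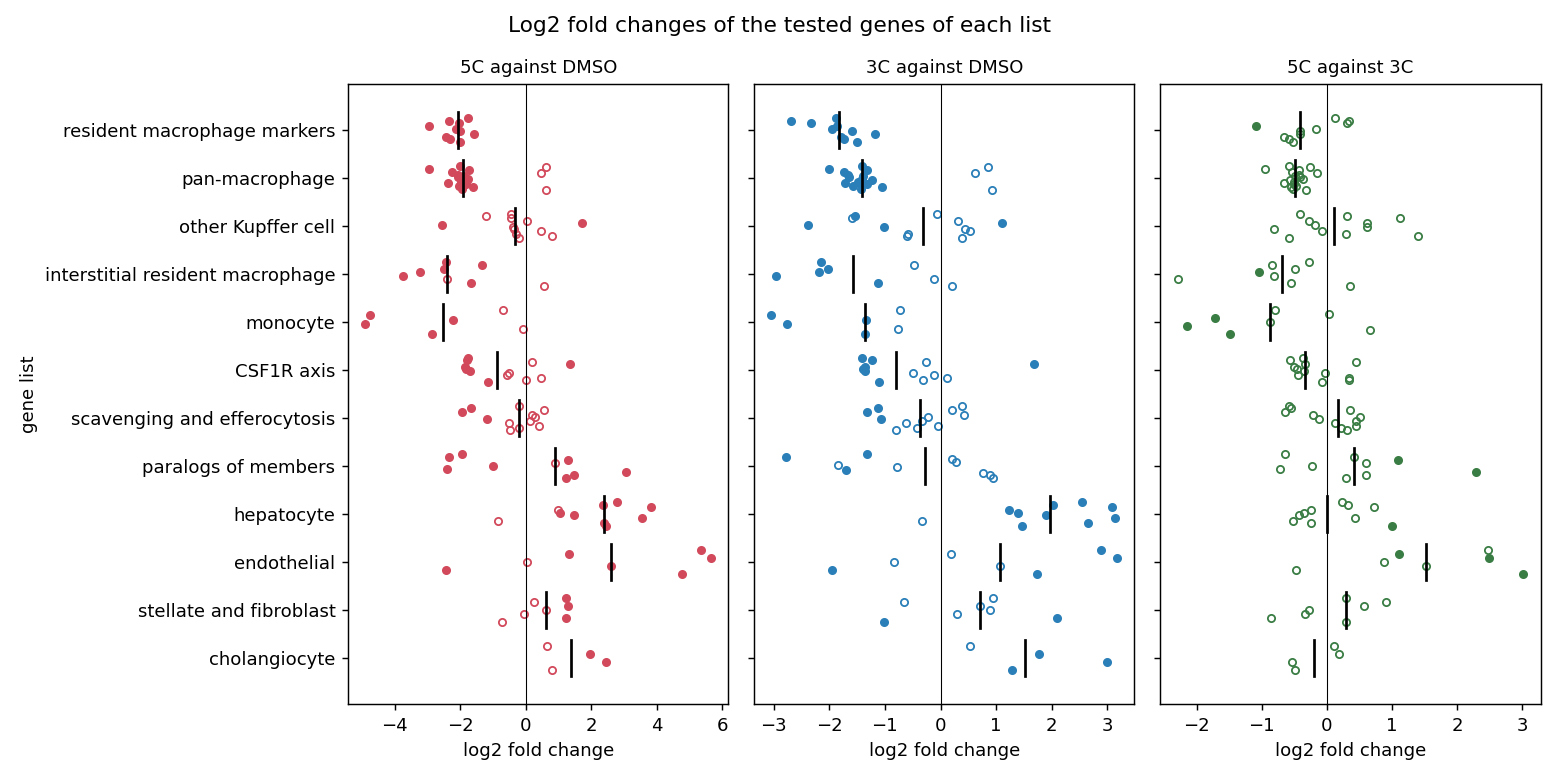
Log2 fold changes of the tested genes of 12 lists in the 3 comparisons; each circle is a gene, filled where it was called, and the black bar is the list's median. Genes at or under the floor in a compared group (2 monocyte genes in the comparisons with DMSO and 1 between 5C and 3C, and Adgre4 among the paralogs in the comparisons with 5C) are not drawn. Against DMSO, all 10 resident macrophage markers (medians -2.07 in 5C and -1.83 in 3C) and 15 of the 18 pan-macrophage genes (medians -1.91 and -1.41) lie left of 0, with Cd14, Aif1 and Coro1a to the right, while the other Kupffer cell genes (medians -0.33 and -0.32) straddle 0; between 5C and 3C, 7 of the 10 markers lie left of 0.

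For each marker the genes with the most similar profile were found by the root mean square difference of log2 CPM, each gene centred on its mean over the 6 libraries, among 10246 genes of at least 10 CPM. Adgre1 was nearest to Ctss (cathepsin S; 0.0367), Lyz2 to Gpnmb (0.0403) and Folr2 to C1qa (0.0490). Csf1r was nearest to Myo1f (0.0507) and then to Ptprc, which encodes CD45 (0.0535). Mrc1 was closest to Vsir (0.0602). The profiles of Cd163 and Marco had less similar neighbours, Ptafr (0.102) and Atp2a3 (0.110), of which Atp2a3 had a log2 fold change of -1.10 between 5C and 3C, beside -1.08 for Marco. Vsig4 and Cd5l shared the same nearest gene, Naaa, a lysosomal amidase, at 0.116 and 0.179. Timd4 had no close neighbour, with Ccdc148 nearest at 0.438. These distances describe 6 libraries and carry no test.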

How the data were processed

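Bulk RNA-seq of 6 libraries (DMSO, 3C and 5C, 2 each) was analysed from 2 deposited tables. The deposited count table holds whole-number estimated counts per gene, not normalized by the authors; the deposited FPKM table (52327 genes) was scaled by the authors for gene length and library total. The submitters' processing notes name featureCounts, Subread, DESeq2 and the GRCm39 build; roles, versions, annotation and strand setting are not given in the sources used here. Low counts were in excess at 4 (4816 entries, beside 3121 of 3 and 2303 of 5), so the floor of 3 fragments was taken as 12 counts on the assumption of 4 units per fragment (0.173 to 0.182 CPM); it covers counting error only. Total counts were 65916573 to 69245895.

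CPM were scaled to the library total. Genes were tested with edgeR 4.0.16 in R 4.3.3 (quasi-likelihood F test, TMM, filterByExpr, robust) on all 6 libraries with a coefficient per group, which left 3 residual degrees of freedom, at a common biological coefficient of variation of 18.4%. Intervals are 95%. In the relative fits the library size was the summed count of the 18 pan-macrophage genes. The alternatives were RLE, upper-quartile and total scaling, other filters, fits of 2 groups, DESeq2 1.42.0, limma 3.58.1 on log2(FPKM + 1) and log2(FPKM + 0.1), counts divided by 4, no fold limit, a geometric mean reference, a replicate block and leaving out each library; the relative fits without a fold limit were chosen after seeing the data. Code was tested on simulated counts. Sequences came from RefSeq (GRCm38.p6) and GRCm39 with GENCODE vM39, and figures from matplotlib 3.10.9.

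The markers and the 15 gene lists were chosen with earlier results of these data known. The genes named were the 10 markers, genes of those lists and the 3 nearest profiles of each marker. Replicate libraries differed by more than sampling noise (chi-square per degree of freedom 4.79 to 10.7 at 4 units per fragment) and were kept as separate samples. Some genes of the lists entered the counts and sums but are not reported here by name.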

Additional observations from a re-analysis of the deposited data

How the results depend on the processing

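All 10 markers stayed called lower in 5C and in 3C under every alternative except limma on log2(FPKM + 1) and 2 of the fits without 1 library, where 9 of 10 were called (Timd4 was lost). Between 5C and 3C, 6 were called with no fold limit, and 0 to 1 when each library was left out. Relative to pan-macrophage RNA, 4 markers in 5C and 7 in 3C were called against DMSO with no fold limit, as were 3 between the cocktails, and 1 (5C) and 2 (3C) with the geometric mean reference, where Marco was at -1.37 in 5C and Timd4 and Cd5l at -1.56 and -1.22 in 3C. With that reference Vsig4 turned to -0.17 and Mrc1 to -0.0092 in 5C, and Mrc1 to -0.080 in 3C; it holds Cd14, Aif1 and Coro1a, which were not lower, at equal weight. Leaving out each library gave 0 to 1 relative calls in either cocktail against DMSO, the 1 being Marco in 5C (-1.13 without DMSO replicate 2 or 5C replicate 2) and Timd4 in 3C (-2.03 without 3C replicate 1). The sign of some uncalled relative values rested on single libraries: in 5C against DMSO, Cd5l ran from -0.19 to 0.12, Cd163 ran from -0.36 to 0.035, Csf1r ran from -0.18 to 0.078; in 3C against DMSO, Csf1r ran from -0.14 to 0.12; in 5C against 3C, Csf1r ran from -0.12 to 0.054, Mrc1 ran from -0.043 to 0.19. The unscaled Timd4 difference between 5C and 3C ran from -0.19 to 1.16.

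Same-numbered libraries did not deviate together (r of replicate differences -0.10, 0.11 and 0.069 for the 3 pairs of groups, over 10237 genes). With a replicate block, 10, 10 and 1 markers were called, as without it. With 2 libraries a group, Timd4 at 12 to 153 estimated counts is the least certain value.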

Other observations

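Cx3cr1, the fractalkine receptor of monocytes and some resident macrophages, moved against the 10 markers. It was assigned 0 and 4 estimated counts in DMSO, at or under the floor of 12, and 170 and 356 in 3C and 107 and 191 in 5C, or 2.57 and 5.22 CPM and 1.55 and 2.76 CPM. Cd14, a co-receptor for lipopolysaccharide that macrophages and other liver cells express, was at 92.1 and 87.1 CPM in DMSO, 156 and 176 CPM in 3C and 144 and 125 CPM in 5C, with log2 fold changes of 0.86 in 3C (edgeR with Benjamini-Hochberg adjustment, adjusted p = 0.000112) and 0.60 in 5C (adjusted p = 0.000734), neither past the fold limit.

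Genes related to the markers by sequence were listed as paralogs: of 14, 10 were tested, with 5 called lower and 4 higher in 5C, 3 lower in 3C, and 2 higher between 5C and 3C. In 5C the receptor tyrosine kinases related to Csf1r had values opposite in sign to it: Kit, Pdgfra and Pdgfrb were called higher, at 3.07, 1.49 and 1.24 on the log2 scale. Kit was at 0.640 and 0.956 CPM in DMSO, 1.12 and 1.67 CPM in 3C and 5.18 and 8.01 CPM in 5C. Folr1, the epithelial folate receptor, was at 22.2 and 18.6 CPM in DMSO, 27.4 and 21.1 CPM in 3C and 50.4 and 49.0 CPM in 5C, called higher in 5C against DMSO (1.30) and against 3C (1.09), where Folr2 was lower. Havcr2, which encodes TIM-3, fell by 2.41 in 5C, close to the value of -2.35 for Timd4.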
